A study of Mus musculus with 20 samples.

Results

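Livers of *Cse*-/- mice that lacked dietary cysteine were compared with livers of *Cse*-/- mice that lacked tryptophan and received l-buthionine sulfoximine (BSO). The 8 livers were chosen by genotype and diet from the 20 analysed: mice av05 to av08 had the no-Cys diet (n = 4), and mice av09 to av12 had the no-Trp diet with BSO (n = 4). All 8 were males of 9 weeks or more on a mixed 129 and C57BL/6 background and carried the same knockout of cystathionine γ-lyase (gene *Cth*, here called *Cse*). They received a calorie-restricted control diet for 3 days and the test diet, also calorie-restricted, for 2 days. The other 12 livers came from *Cse*-/- mice on the no-Trp diet without BSO (n = 3) and from control mice on the no-Cys (n = 4), no-Trp (n = 3) or control diet (n = 2). The sample labels call these controls WT, whereas the study's list of mice gives them as *Cse*+/-, and they are called control mice here. BSO inhibits γ-glutamyl cysteine synthase, the first enzyme of glutathione synthesis, and was given in the diet. No group analysed here received BSO with a complete diet, so that BSO is seen here only together with a lack of tryptophan, and glutathione itself was not measured in these libraries. The question was which programs of the cysteine-deprived liver were not copied by an inhibitor of glutathione synthesis given with the lack of another amino acid.

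Cysteine is used for protein synthesis, for glutathione, for coenzyme A, for taurine and for iron-sulfur clusters. Without cystathionine γ-lyase a mouse cannot make it from methionine and depends on the diet. When a tRNA stays uncharged, the kinase GCN2 phosphorylates the initiation factor eIF2α. General translation then falls while the transcription factor ATF4 is made, and ATF4 turns on genes of amino acid synthesis, transport and tRNA charging; this is the integrated stress response (ISR). Low glutathione and electrophiles instead act on KEAP1, whose cysteines hold the transcription factor NRF2 in check. Released NRF2 turns on the oxidative stress response (OSR), with glutathione S-transferases, quinone reductases and export pumps. Lack of any essential amino acid can engage the first pathway, and block of glutathione synthesis the second.

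Counts on genes ran from 12664830 to 15436551 in the no-Cys livers and were 57986121 in av09, 14240348 in av10, 14054270 in av11 and 30575178 in av12. Of 46078 genes, 14759 had enough counts for a test. Levels are given as CPM, counts relative to library size after TMM scaling, and log2 fold changes are no-Cys minus no-Trp with BSO, so that positive values are higher without cysteine. The remaining transcript of the targeted gene, *Cth*, was at 6.37, 7.04, 6.83 and 13.3 CPM in av05 to av08 and at 8.36 to 10.7 CPM in the livers with BSO, against group means of 134 to 194 CPM in control mice. One no-Cys liver stood apart. Over all tested genes, the mean root-mean-square log2 distance of av08 was 0.389 to the other no-Cys livers and 0.361 to the livers with BSO, whereas av05, av06 and av07 were at 0.33 to 0.338 from their own group and at 0.377 to 0.403 from the other. Results are therefore also given without av08, which remains in every fit unless it is named as left out.

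Markers of the hepatocyte were abundant in all 8 livers. The summed level of 8 hepatocyte markers was 54288 to 80491 CPM in the no-Cys livers and 73390 to 86540 CPM in those with BSO. The ranges overlapped through av08, since av05 to av07 were at 54288 to 60111 CPM, below each liver with BSO. Of these 8 markers *Apoa1* (-0.73) and *Serpina1c* (-0.81) were called lower in the no-Cys livers. The bile duct list was also lower: 6 markers summed to 16.6 to 28.8 CPM without cysteine against 36.3 to 48.9 CPM with BSO, and 2 of 5 tested, *Krt7* (-1.07) and *Spp1* (-1.09), were called. In bulk tissue fewer cells of a type and less RNA per cell cannot be told apart. Of 11 macrophage, 7 endothelial and 8 stellate cell markers none was called by edgeR, and their sums overlapped between the groups (325 to 381 against 335 to 454 CPM, 193 to 233 against 188 to 244 CPM, and 348 to 392 against 303 to 362 CPM). A red cell list of 6 markers summed to 34.4, 33.2, 30 and 55.2 CPM in av05 to av08 and to 34.6 to 69.8 CPM with BSO. None of the 3 red cell markers tested was called by edgeR. Lists for neutrophils, lymphocytes and adipocytes summed to at most 3.22 CPM in any of the 8 livers.

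The livers differed in 406 of the 14759 genes at an adjusted p under 0.05 (edgeR quasi-likelihood test with Benjamini-Hochberg adjustment): 196 were higher without cysteine (1.33%) and 210 were lower (1.42%). The median log2 fold change over all tested genes was -0.00. The groups of 4 did not overlap in 1868 tested genes (12.7%), and in 345 of the 406 called. The number of calls moved with most single mice. Without av08, 463 genes were higher and 564 lower, whereas leaving out any other mouse gave between 34 and 151 higher and between 18 and 184 lower. In all 8 fits that left out 1 mouse, 44 genes remained called, 26 higher and 18 lower, and no called gene changed direction in any of them. DESeq2 called 441 higher and 435 lower, which include 400 of the 406.

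**Figure D1:**
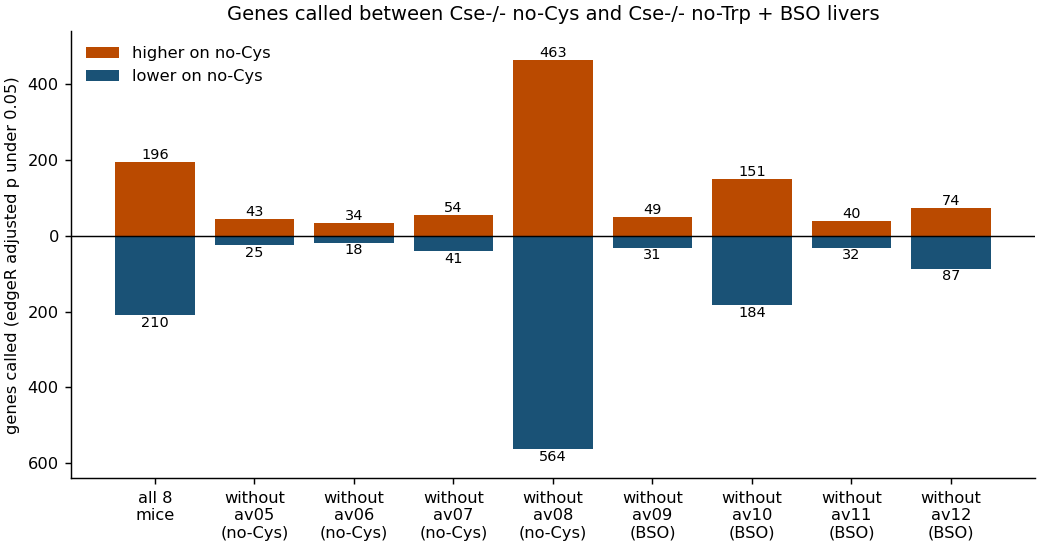
Number of genes called between the no-Cys livers and the livers with BSO (vertical axis: higher without cysteine above 0, lower below 0) with all 8 mice and with each mouse left out (edgeR, adjusted p under 0.05). With all mice 196 genes were higher and 210 lower, and without av08 the counts were 463 and 564.

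Diet and library cannot be told apart for every gene, since the no-Cys livers of both genotypes were shallow, with 11785740 to 15436551 counts, while the others had 14054270 to 57986121. Control mice give a check that shares no library with the knockouts: between control mice on the no-Cys and the no-Trp diets, 683 genes were higher (4.63%) and 503 lower (3.41%) on no-Cys, a comparison added after the data were seen. Of the 196 genes higher in the cysteine-deprived knockouts, 24 (12.2%) were also higher there, which is 3.51% of the 683. Of the 210 lower genes, 17 (8.1%) were also lower, 3.38% of the 503. In sign alone, 132 of the 196 and 133 of the 210 went the same way in control mice. *Col15a1*, a basement membrane collagen, shows such a gene. It was at 3.72, 6.01, 4.41 and 7.08 CPM without cysteine and at 1.9, 1.81, 1.61 and 1.25 CPM with BSO, a log2 fold change of 1.68 that held without each mouse (edgeR adjusted p = 0.00206). Control mice on no-Cys averaged 4.98 CPM and those on no-Trp 1.7 CPM, also a called difference (1.62, adjusted p = 0.00162), in mice that make cysteine.

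Of 9 genes tested for the synthesis of serine, glycine, one-carbon units and proline, 6 were higher without cysteine than with BSO and tryptophan lack, with a median log2 fold change of 1.97. Over the whole ISR list 10 of 35 genes tested were higher and none was lower, the median was 0.76, and 30 of 35 were positive in sign, beside 1.33% of all genes called higher. At an unadjusted p under 0.05 17 were higher and 0 lower, and DESeq2 called 11 higher and 0 lower. The count was 15 without av08, 12 without av10, 6 without av05 or av09, 5 without av06, av11 or av12 and 4 without av07, when the median was 0.41. The mean log2(CPM + 1) of the list was 4.49, 4.57 and 4.81 in av05, av06 and av07 but 3.78 in av08, within the 3.59 to 3.89 of the livers with BSO.

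*Pck2*, the mitochondrial phosphoenolpyruvate carboxykinase (ENSMUSG00000040618, GRCm38 chr14:55540266-55551242, plus strand), was also higher without cysteine. Its level was 53.7, 71.4, 61.3 and 13.6 CPM in av05 to av08 and 5.81, 7.5, 6.18 and 5.16 CPM in av09 to av12. All no-Cys livers exceeded all livers with BSO, although av08 stood well below its group. The log2 fold change was 3.04 (SE 0.336), 8.21-fold, with an adjusted p of 0.000148 (edgeR), and it was 3.35 without av08. Livers with BSO did not exceed control mice on no-Trp, at a mean of 7.74 CPM (-0.36, adjusted p = 0.552), and knockouts on no-Trp without BSO averaged 7.67 CPM.

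*Psat1*, the transaminase of serine synthesis (ENSMUSG00000024640, GRCm38 chr19:15904678-15947337, minus strand), was at 64.5, 66.4, 66.7 and 33.8 CPM without cysteine. With BSO it was at 13.6, 11.2, 13 and 5.54 CPM, so that the groups did not overlap. The log2 fold change was 2.43 (SE 0.299, edgeR adjusted p = 0.000546), 5.37-fold. Unlike *Pck2*, *Psat1* was also higher with BSO than in control mice on no-Trp, which averaged 2.58 CPM (2.05, adjusted p = 0.0017). Its level with BSO was near the 13.3 CPM of knockouts on no-Trp alone.

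*Mthfd2*, the mitochondrial methylene-tetrahydrofolate dehydrogenase, was at 15.7, 16.6, 21.5 and 8.04 CPM without cysteine and at 5.09, 2.48, 4.07 and 2.5 CPM with BSO. It was 4.3-fold higher without cysteine (SE 0.329 on the log2 scale, edgeR adjusted p = 0.00445), with no overlap. *Aldh1l2*, the mitochondrial formyl-tetrahydrofolate dehydrogenase, was at 3.01, 4.99, 4.84 and 0.812 CPM against 0.715, 1.21, 0.562 and 0.448 CPM (2.27, adjusted p = 0.00828). Here av08 fell inside the range of the livers with BSO. A gene on the opposite strand shares 13.2% of the sequence windows of *Aldh1l2*. The calls of *Pck2*, *Psat1*, *Mthfd2* and *Aldh1l2* held without each of the 8 mice.

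*Phgdh*, the first enzyme of serine synthesis, was nearly silent, with 9, 16, 16 and 1 counts without cysteine and 5, 2, 0 and 1 with BSO. The difference, 3.27 on the log2 scale (edgeR adjusted p = 0.0112), rests on these few counts, and DESeq2 gave it no adjusted p. It could not be fitted without av06 or av07, when it no longer passed the count filter, and 42.8% of its sequence windows occur in another gene, a pseudogene. *Psph*, the last enzyme of the path, was at 7.67, 4.99, 7.94 and 6.57 CPM against 4.66, 4.56, 3.51 and 3.27 CPM (0.76, adjusted p = 0.0239). *Pycr1*, of proline synthesis, was at 3.13, 4.84, 3.54 and 0.59 CPM against 0.715, 0.737, 0.912 and 0.769 CPM (1.97, adjusted p = 0.0202). In *Pycr1* the no-Cys liver av08 was the lowest of the 8, and the value without it was 2.30. The call of *Psph* was lost without av05, av07, av11 or av12 (adjusted p of up to 0.0892), and that of *Pycr1* without any mouse other than av08 and av10 (up to 0.0838). *Shmt2*, which makes glycine in mitochondria, did not pass (0.12, adjusted p = 0.503), nor did *Mthfd1l* (1.08, adjusted p = 0.139) and *Aldh18a1* (0.79, adjusted p = 0.402).

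*Asns*, asparagine synthetase, was high in both groups and higher without cysteine. Its level was 108, 140, 143 and 75.8 CPM in av05 to av08 and 35.8, 43.6, 38.3 and 24.3 CPM in av09 to av12. The groups did not overlap, and the log2 fold change was 1.72 (SE 0.431, edgeR adjusted p = 0.0366). The call was lost without any mouse other than av08 (adjusted p of up to 0.107) and in DESeq2 (1.73, adjusted p = 0.061). Control mice on no-Trp averaged 3.05 CPM, so that *Asns* was also raised with BSO (3.55, edgeR adjusted p = 0.000671). This comparison holds both genotype and BSO. *Gpt2*, the mitochondrial alanine transaminase, did not pass (0.34, adjusted p = 0.0913). The mean log2(CPM + 1) of *Asns*, *Gpt2* and *Pck2* was 5.54 to 5.90 with BSO. It was 5.37 to 5.96 in knockouts on no-Trp without BSO and 4.73 to 4.74 in control mice on no-Trp.

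**Figure D2:**
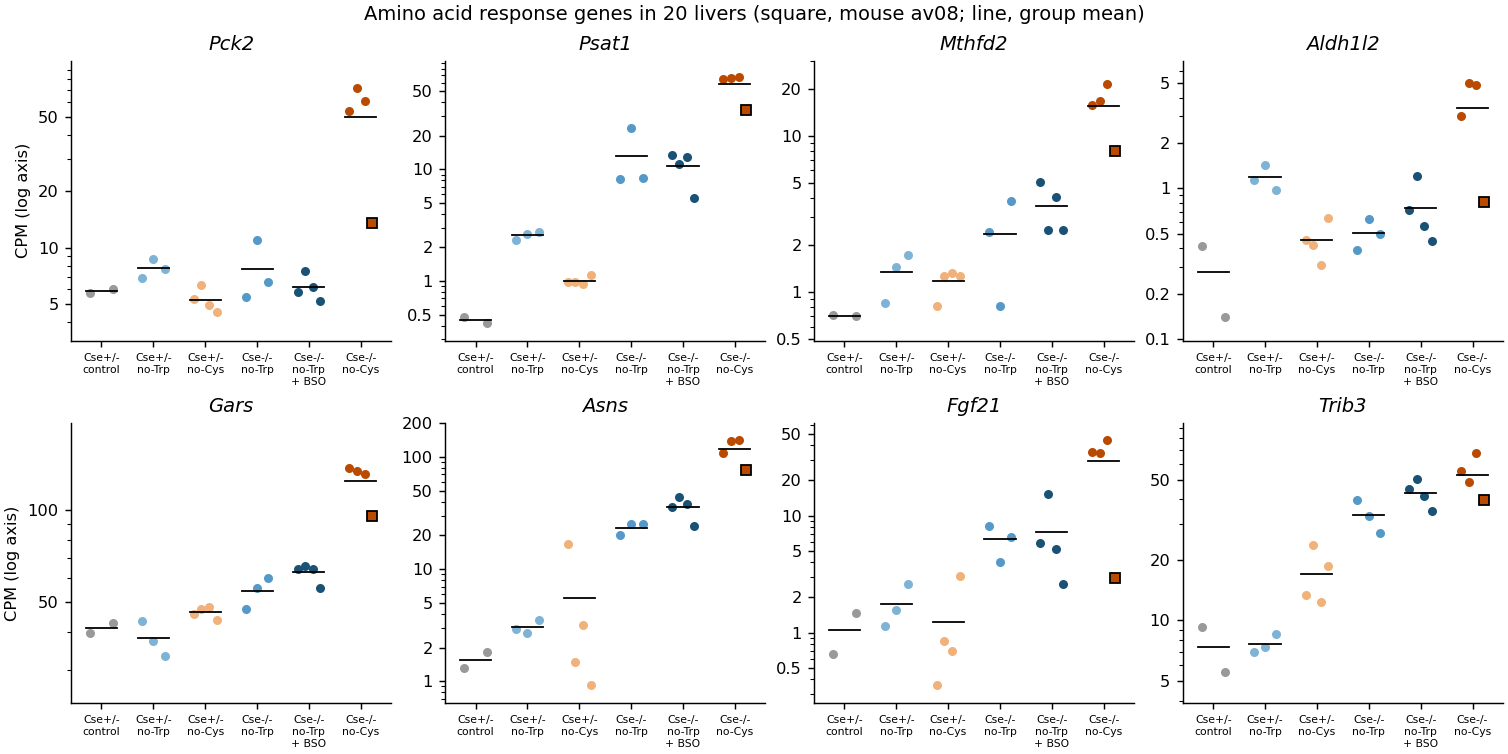
Level of *Pck2*, *Psat1*, *Mthfd2*, *Aldh1l2*, *Asns*, *Fgf21* and *Trib3* of the ISR list and of the tRNA synthetase *Gars* (vertical axis: CPM, log scale) in each mouse of the 6 groups, with a line at each group's mean and a square for av08. *Pck2*, *Psat1*, *Mthfd2*, *Gars* and *Asns* did not overlap between the no-Cys livers and the livers with BSO, whereas *Trib3* did.

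Among the regulators of the ISR 1 of 10 passed. *Atf5*, a transcription factor of the response, was at 1597, 1456, 1667 and 671 CPM without cysteine and at 749, 617, 670 and 568 CPM with BSO (1.05, edgeR adjusted p = 0.0221). Again av08 lay among the livers with BSO, and the call was lost without any mouse other than av08 and av10 (up to 0.082). The stress effectors downstream of ATF4 did not pass. *Ddit3*, the factor CHOP, was at 11.4, 10.9, 15.8 and 11.4 CPM against 13.6, 12.4, 12.5 and 12.2 CPM (-0.04, adjusted p = 0.933). *Trib3*, a pseudokinase that restrains the response, was at 55.2, 48.5, 68 and 39.7 CPM against 44.8, 50.4, 41.3 and 34.9 CPM (0.31, adjusted p = 0.395). *Trib3* was above control mice on no-Cys and on no-Trp without BSO in the respective groups (1.63 without cysteine, and 2.48 with BSO, adjusted p = 4.23e-06). *Atf4* itself (0.12, adjusted p = 0.765), *Atf3* (0.93, adjusted p = 0.0845), *Atf6* (0.19, adjusted p = 0.356), *Cebpb* (-0.12) and *Nupr1* (1.02, adjusted p = 0.231) did not pass.

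Of 7 amino acid transporters 1 passed. *Slc3a2*, the shared chain of several exchangers, was at 75.1, 100, 105 and 46.7 CPM without cysteine and at 49.8, 42.9, 49 and 42.1 CPM with BSO (0.83, edgeR adjusted p = 0.02). The groups overlapped through av08, and the call was lost without av06, av07, av09, av11 or av12 (up to 0.0786). *Slc7a1*, the cationic amino acid transporter, was at 2.72, 1.91, 7.7 and 1.48 CPM against 1.17, 2.08, 0.842 and 1.22 CPM (1.41, adjusted p = 0.0611). *Slc1a4*, which carries neutral amino acids, gave 0.60 (adjusted p = 0.266), and *Slc7a11*, the cystine importer, had too few counts for a test. *Fgf21*, the fasting hormone of the liver, was at 35.2, 34.2 and 44.1 CPM in av05 to av07 but at 2.95 CPM in av08. The livers with BSO had 5.79, 15.3, 5.19 and 2.59 CPM, and the log2 fold change was 2.06 (SE 0.576, adjusted p = 0.0577). Without av08 it was 2.44 (adjusted p = 0.00249). *Gdf15*, which curbs appetite, was at 12.9, 9.9, 12.9 and 6.05 CPM against 6.28, 9.45, 6.39 and 2.98 CPM (0.76, adjusted p = 0.424). *Chac1*, which cleaves glutathione (0.99, adjusted p = 0.209), and *Sesn2*, a brake on mTORC1 (0.14, adjusted p = 0.707), did not pass.

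The aminoacyl-tRNA synthetases, which charge tRNAs with their amino acids, were higher without cysteine in 7 of 20, and none was lower (median 0.35, 18 positive in sign), beside 1.33% of all genes called higher. DESeq2 called 11. By edgeR 12 were called without av08, 4 without av10, 3 without av09, 2 without av11 or av12 and 1 without av05, av06 or av07, and 4 were called without a filter on low counts. *Gars*, for glycine (GRCm38 chr6:55038007-55079500, plus strand), was at 138, 135, 132 and 96 CPM without cysteine and at 64.3, 65.8, 64.4 and 55.8 CPM with BSO. It separated the groups widely, with a log2 fold change of 1.00 (SE 0.111, edgeR adjusted p = 0.000148) that held without each mouse. *Sars*, for serine, was at 172, 162, 177 and 111 CPM against 108, 105, 101 and 88.6 CPM (0.63, adjusted p = 0.0129). *Iars*, for isoleucine, was at 78.3, 74, 82.6 and 47.7 CPM against 50.9, 47, 45.6 and 44 CPM (0.59, adjusted p = 0.0261). The groups did not overlap in *Sars* and overlapped in *Iars* through av08. The other 4 were *Nars* (0.41, adjusted p = 0.0356), *Vars* (0.39, adjusted p = 0.0391), *Eprs* (0.37, adjusted p = 0.0306) and *Rars* (0.34, adjusted p = 0.0311). Apart from *Gars* these calls were lost when some single mice were left out (*Sars* without av05, av06 or av07, the other 5 without at least 6 of the 8, with adjusted p of up to 0.125).

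The synthetases of the missing amino acids themselves did not pass the test. *Wars*, for tryptophan, was at 16.9, 19.1, 17.6 and 18.2 CPM without cysteine and at 20.9, 19.4, 18.3 and 21.7 CPM with BSO (-0.16, edgeR adjusted p = 0.533). *Cars*, for cysteine, was at 49.8, 46.5, 60.1 and 28.8 CPM against 41.1, 36.4, 35.9 and 29.6 CPM (0.37, adjusted p = 0.403). Relative to control mice on no-Cys and on no-Trp without BSO, *Cars* rose without cysteine (0.90, adjusted p = 0.012) and reached 0.81 with BSO (adjusted p = 0.0517), while *Wars* gave 0.17 and 0.08.

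Promoters of these genes are shown because members that were called and members that were not share the same short element. The core TGATGNAA of the C/EBP-ATF response element, to which ATF4 can bind, was searched on both strands in RefSeq promoters of GRCm38.p6 (250 bases before the start of transcription and 50 after it). It occurred in 4.51% of 27025 genes, in 2.86% of 10444 tested genes with a promoter, in 10 of 32 ISR genes (31.2%) and in 5 of 12 tRNA synthetases (41.7%). The 10 were *Asns*, *Atf3*, *Chac1*, *Fgf21*, *Nupr1*, *Pck2*, *Pycr1*, *Slc1a4*, *Slc7a11* and *Trib3*, of which *Asns*, *Pck2* and *Pycr1* were called. Among all genes called it occurred in 10 of 151 that were higher (6.62%) and 6 of 150 that were lower (4%). The 250 bases before the start are printed 5′ to 3′ on the gene's strand, with the element in capitals, for 4 called genes, *Pck2* (chr14:55540016-55540265, plus), *Asns* (chr6:7693210-7693459, minus), *Pycr1* (chr11:120643749-120643998, minus) and *Gars* (chr6:55037751-55038000, plus), and for 1 not called, *Fgf21* (chr7:45615491-45615740, minus).
Pck2: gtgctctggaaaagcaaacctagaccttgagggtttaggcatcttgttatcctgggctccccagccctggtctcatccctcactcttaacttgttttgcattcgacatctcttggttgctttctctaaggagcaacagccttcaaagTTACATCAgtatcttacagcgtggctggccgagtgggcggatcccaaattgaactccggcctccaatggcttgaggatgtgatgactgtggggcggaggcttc
Asns: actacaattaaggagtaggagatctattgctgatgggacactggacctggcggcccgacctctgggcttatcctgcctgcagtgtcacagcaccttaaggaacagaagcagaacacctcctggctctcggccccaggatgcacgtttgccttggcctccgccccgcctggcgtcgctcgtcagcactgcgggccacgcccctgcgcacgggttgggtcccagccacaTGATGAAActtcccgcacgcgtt
Pycr1: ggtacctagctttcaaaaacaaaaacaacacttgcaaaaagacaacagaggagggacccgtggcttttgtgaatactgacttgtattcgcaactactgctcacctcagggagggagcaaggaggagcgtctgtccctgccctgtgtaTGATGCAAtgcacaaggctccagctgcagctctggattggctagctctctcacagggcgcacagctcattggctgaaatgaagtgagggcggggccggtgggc
Gars: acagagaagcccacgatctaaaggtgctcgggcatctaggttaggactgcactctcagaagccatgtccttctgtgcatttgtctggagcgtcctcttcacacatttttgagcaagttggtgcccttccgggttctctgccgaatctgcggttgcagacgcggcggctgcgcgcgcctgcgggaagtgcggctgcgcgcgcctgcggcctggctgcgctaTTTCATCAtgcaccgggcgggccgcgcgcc
Fgf21: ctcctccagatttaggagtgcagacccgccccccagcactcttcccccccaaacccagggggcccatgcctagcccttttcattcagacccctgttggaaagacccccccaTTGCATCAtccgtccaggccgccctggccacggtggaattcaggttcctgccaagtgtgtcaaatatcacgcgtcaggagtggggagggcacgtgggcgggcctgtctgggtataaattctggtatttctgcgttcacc
The element lay 103 bases before the start in *Pck2* and *Pycr1*, 23 in *Asns*, 30 in *Gars* and 139 in *Fgf21*. In *Trib3*, whose level did not separate the groups, it lay just after the start. A match is a description of these letters and not a bound site.

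Many NRF2 targets were higher in both groups than in control mice. Between the groups, 4 of 34 tested were higher without cysteine and none was lower (edgeR, median 0.11, 20 positive in sign), beside 1.33% of all genes called higher. At an unadjusted p under 0.05 10 were higher and 1 was lower, and DESeq2 called 8 higher and 0 lower. By edgeR 7 were called without av08, and 0 without any other 1 mouse. Against control mice on no-Cys and on no-Trp without BSO the same list had 20 higher and 2 lower without cysteine (median 0.82), and 24 higher and 0 lower with BSO (median 0.91), beside 11.6% and 12.2%, and 6.53% and 5.4%, of all genes called higher and lower in these comparisons. The mean log2(CPM + 1) of the list was 6.91, 7.2, 7.28 and 7.06 in the no-Cys livers. With BSO it was 7.03, 7.04 and 6.98 in av09, av11 and av12 but 6.52 in av10, the lowest of the 8. In the remaining 12 livers it was at most 6.31.

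Among enzymes that reduce quinones and carbonyls, 1 of 9 differed. *Nqo1*, a quinone reductase often used as a readout of NRF2, was at 21.1, 32.9, 32.9 and 24.3 CPM without cysteine and at 27.7, 13.3, 27.2 and 30.7 CPM with BSO (0.16, edgeR adjusted p = 0.729). The groups overlapped in part, and both exceeded their control mice, which averaged 5.73 and 4.65 CPM (2.29, adjusted p = 4.49e-06, and 2.42, adjusted p = 2.45e-05). *Cbr3*, a carbonyl reductase, was at 3.72, 5.72, 9.62 and 2.95 CPM against 3.19, 1.54, 3.02 and 1.76 CPM (1.19, adjusted p = 0.0425). *Srxn1*, which repairs oxidised peroxiredoxins, was at 84.8, 81.5, 107 and 91 CPM against 77.9, 57.4, 80.8 and 74.6 CPM (0.32, adjusted p = 0.168). Its groups did not overlap, although the difference did not pass, and it rose in each response (1.77 and 1.83).

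Of 10 glutathione S-transferases, which attach glutathione to electrophiles, 2 were higher without cysteine. *Gstm3* was at 148, 301, 231 and 108 CPM against 101, 33, 87 and 75.7 CPM (1.41, edgeR adjusted p = 0.0297), and 25.7% of its sequence windows occur in other genes. *Gstm4* was at 123, 182, 151 and 107 CPM against 98.6, 49.4, 96.8 and 78.9 CPM (0.80, adjusted p = 0.0338). Both separated the groups, with av10 the lowest of the 8 livers. *Gstm1*, far more abundant, was at 3061, 3834, 3642 and 2496 CPM against 4047, 1510, 3257 and 2690 CPM (0.18, adjusted p = 0.704), and shares 15.2% of its windows. *Gstm2* gave 0.61 (adjusted p = 0.0747) and *Gsta1* 1.22 (adjusted p = 0.0653), but 87.9% of the windows of *Gsta1* and 43.5% of those of *Gsta2* (0.33) occur elsewhere, so that their counts are uncertain. *Abcc4*, a pump that exports glutathione conjugates, was at 13.9, 14.4, 21.5 and 14 CPM against 9.56, 4.56, 9.83 and 9.51 CPM (0.92, adjusted p = 0.0391). *Gstm3*, *Gstm4*, *Cbr3* and *Abcc4* each lost the call when any mouse other than av08 was left out (adjusted p of up to 0.162).

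**Figure D3:**
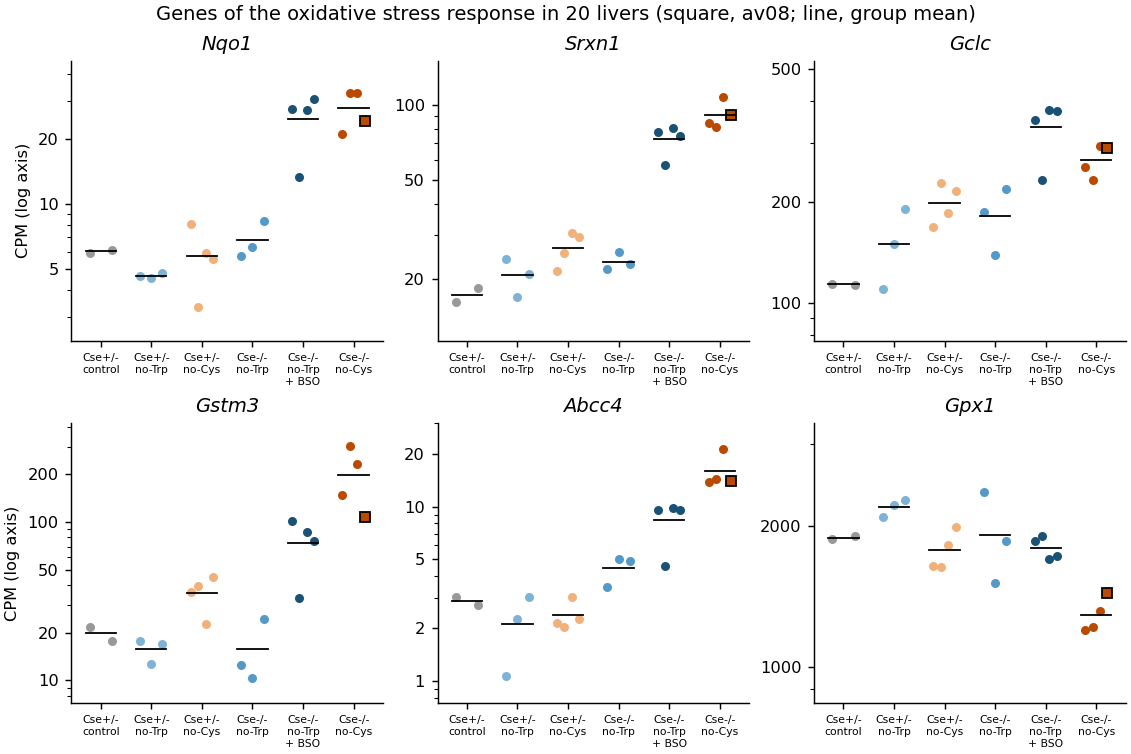
Level of 5 NRF2 targets (*Nqo1*, *Srxn1*, *Gclc*, *Gstm3*, *Abcc4*) and of *Gpx1* (vertical axis: CPM, log scale) in each mouse of the 6 groups, with a line at each group's mean and a square for av08. *Nqo1* overlaps between the no-Cys livers and the livers with BSO, and both lie above the other groups.

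The enzyme that BSO inhibits was not higher without cysteine. *Gclc*, its catalytic subunit, was at 255, 233, 293 and 289 CPM without cysteine and at 352, 233, 376 and 374 CPM with BSO (-0.32, edgeR adjusted p = 0.308). Against control mice *Gclc* rose with BSO (1.15, adjusted p = 0.000899) and gave 0.43 without cysteine (adjusted p = 0.078), and the difference between these responses did not pass (-0.73, adjusted p = 0.134). *Gclm*, the regulatory subunit (-0.01), *Gss*, glutathione synthetase (0.06), *Gsr*, glutathione reductase (0.15), and *Txnrd1*, thioredoxin reductase (-0.18), did not pass either. Of 13 genes of glutathione turnover, 2 were lower without cysteine and none was higher, beside 1.42% of all genes called lower. Without av08, 1 was higher and 2 were lower. *Gpx1*, the main cytosolic glutathione peroxidase and a selenoprotein, was at 1200, 1217, 1318 and 1442 CPM against 1859, 1904, 1703 and 1726 CPM (-0.47, adjusted p = 0.032). *Glo1*, which uses glutathione to detoxify methylglyoxal, was at 163, 168, 167 and 199 CPM against 243, 219, 244 and 244 CPM (-0.45, adjusted p = 0.0168). Neither gene overlapped between the groups. *Gpx1* lost the call without any mouse other than av08 (up to 0.117), and *Glo1* without av05, av06, av07, av09 or av11 (up to 0.0724).

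Each group was also set against control mice that lacked the same amino acid, which gives 2 responses without a shared library. The control mice on no-Trp received no BSO, so that the response with BSO holds both genotype and BSO. The response without cysteine had 1717 genes higher and 1798 lower, and the response with BSO had 964 higher and 797 lower. In both, 862 genes were called, 494 higher in both, 344 lower in both and 24 in opposite directions. The 838 of the same sign are 23.8% of the genes called without cysteine and 47.6% of those called with BSO. The correlation of the log2 fold changes across the 14759 genes was 0.50, a description over genes that are not independent replicates. Where a difference between the responses was tested directly, 151 genes were higher without cysteine (1.02%) and 210 were lower (1.42%), and these include 264 of the 3515 genes called in the response without cysteine.

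By that test 9 of 35 ISR genes differed, all higher without cysteine. *Pck2* responded by 3.25 without cysteine and by -0.36 with BSO (difference 3.61, edgeR adjusted p = 0.00257). *Psat1* responded by 5.83 and 2.05 (3.78, adjusted p = 0.00257), and *Aldh1l2* by 2.88 and -0.76 (3.65, adjusted p = 0.00928). These 3 differences held without each of the 15 mice involved, as did that of *Atf3* (1.96, adjusted p = 0.0244). *Mthfd2* (2.33, adjusted p = 0.0358), *Phgdh* (4.78, adjusted p = 0.0233), *Slc3a2* (1.08, adjusted p = 0.0334), *Chac1* (2.64, adjusted p = 0.0378) and *Atf6* (0.62, adjusted p = 0.0451) passed with all mice and lost the call in 4 to 12 of the 15 fits that left out 1 mouse (up to 0.109). A difference of responses holds the difference between the control groups as well as that between the knockout groups. *Atf3*, *Chac1* and *Atf6* were not called between the no-Cys livers and those with BSO themselves. The difference of responses for *Asns* did not pass (0.92, edgeR adjusted p = 0.578). Among tRNA synthetases *Gars* (0.72, adjusted p = 0.0269), *Tars* (0.62, adjusted p = 0.0402) and *Eprs* (0.60, adjusted p = 0.0229) differed, each losing the call in some of these fits (up to 0.108). Of the 34 NRF2 targets none differed by edgeR. The difference was positive in sign in 8 and negative in 26, with a median of -0.12. At an unadjusted p under 0.05 2 were higher and 5 lower, and DESeq2 called 1 higher and 0 lower.

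**Figure D4:**
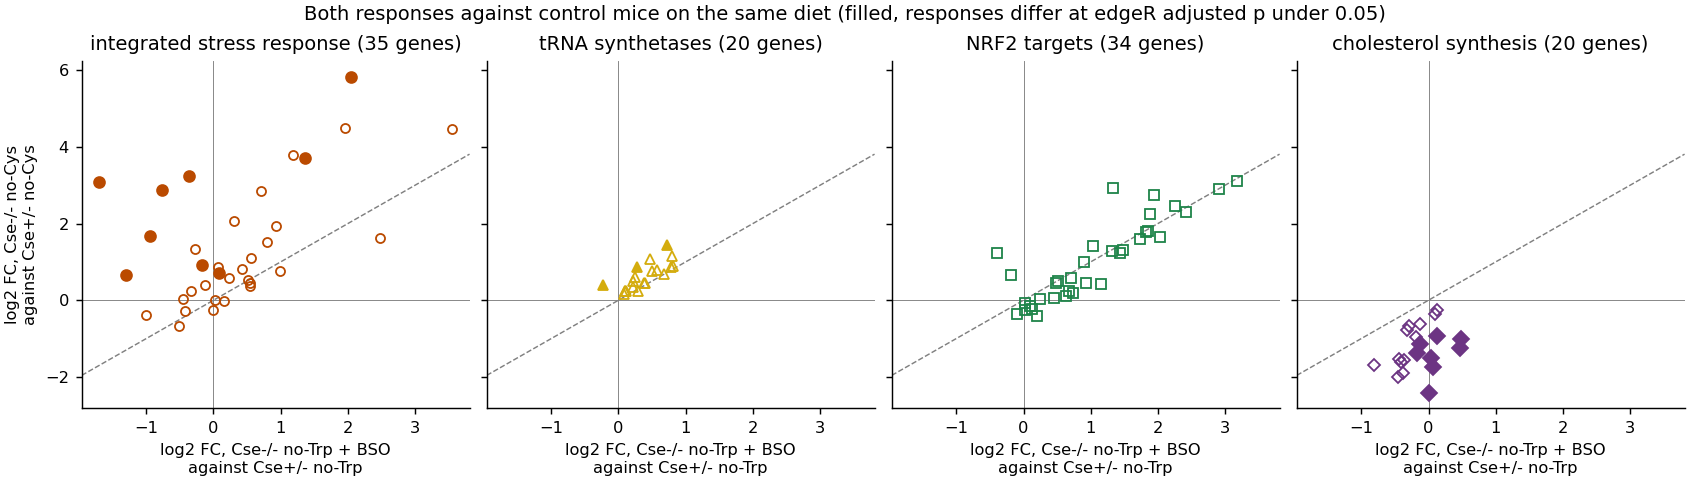
Log2 fold change of each gene without cysteine (control mice on no-Cys as reference, vertical axis) against that with BSO (control mice on no-Trp as reference, horizontal axis) for 35 ISR genes, 20 tRNA synthetases, 34 NRF2 targets and 20 cholesterol genes. Filled points differ between the responses (9, 3, 0 and 8 genes) and the dashed line marks equal responses. Of the 34 NRF2 targets 26 lie on the side of a larger value with BSO, and their medians are 0.82 and 0.91.

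Cholesterol synthesis shows how far the reference matters. Between the groups themselves 1 of 20 genes differed: *Ebp*, a sterol isomerase, was at 112, 117, 104 and 147 CPM without cysteine and at 154, 169, 153 and 172 CPM with BSO (-0.43, edgeR adjusted p = 0.0241), and the call was lost when any mouse other than av08 was left out (up to 0.0949). The median of the list was -0.09. Against control mice on no-Cys and on no-Trp without BSO 18 of 20 were lower without cysteine (median -1.31) and none was called with BSO by edgeR (median -0.15; unadjusted p under 0.05 in 1 higher and 2 lower, 1 higher and 1 lower by DESeq2), beside 12.2% and 5.4% of all genes called lower, and the responses differed in 8, all lower. *Msmo1*, of the sterol steps, was at 18.5, 53.8, 34 and 58.4 CPM against 25.4, 64.8, 30.7 and 44.2 CPM (-0.00, adjusted p = 1). Its control mice, however, averaged 138 CPM on no-Cys and 39.3 CPM on no-Trp. *Hmgcs1*, which makes the precursor of mevalonate, was at 43.4, 77.8, 55 and 74 CPM against 45.4, 84.1, 49.4 and 68.9 CPM (0.02, adjusted p = 0.983), with control means of 178 and 60 CPM. *Nsdhl* gave -0.51 (adjusted p = 0.331) with control means of 53.3 and 14.2 CPM. A difference of responses is the difference between the no-Cys livers and those with BSO, less that between their control groups. The differing responses (-1.82, -1.55 and -2.41, edgeR adjusted p = 0.0387, 0.0282 and 0.00782) thus hold the difference between the control groups. In *Msmo1* and *Hmgcs1* nearly all of it lies there, given the values of -0.00 and 0.02 above. Why the control groups differed was not tested. The differing response of *Nsdhl* held without each of the 15 mice, whereas those of *Msmo1* and *Hmgcs1* were lost in 11 and 7 of the fits.

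In lipid synthesis and storage 2 of 24 genes of lipogenesis were higher without cysteine (median 0.22) and none was lower, beside 1.33% of all genes called higher. Without av08, 3 were higher and 1 was lower, and without av10 4 were higher. None was called when any other mouse was left out. *Acaca*, acetyl-CoA carboxylase of the cytosol, was at 43.4, 34.8, 37.1 and 36.1 CPM against 22, 29.5, 20.7 and 23.3 CPM (0.67, edgeR adjusted p = 0.0209), without overlap. *Acacb*, its mitochondrial counterpart, gave 0.84 (adjusted p = 0.0402). Other genes share 28.7% of the windows of *Acaca*. *Scd1*, the stearoyl-CoA desaturase, was at 228, 295, 258 and 694 CPM against 50.8, 273, 60.3 and 90.9 CPM (1.64, adjusted p = 0.138), and fell in each response from control means of 7638 and 1197 CPM (-4.37 and -3.34). *Srebf1*, which drives lipogenesis, was at 37.1, 73.7, 51 and 106 CPM against 109, 105, 96.8 and 137 CPM (-0.74, adjusted p = 0.128, and -1.06 with adjusted p = 0.017 without av08). *Srebf2* (0.01) and *Fasn* (0.17) did not pass. *Insig2*, which retains SREBPs in the ER, was at 199, 140, 133 and 72.2 CPM against 65.1, 82.5, 67.3 and 75.5 CPM (0.91, adjusted p = 0.0345). *Plin2*, the lipid droplet coat and 1 called of 43 PPARα targets, was at 658, 404, 397 and 269 CPM against 174, 278, 161 and 176 CPM (1.13, adjusted p = 0.0385). Of the 43 targets 4 were higher without av08, and 4 by DESeq2. *Acaca*, *Acacb*, *Insig2* and *Plin2* each lost the call without any mouse other than av08 and av10 (up to 0.161). *Vldlr* (0.33) rose in each response (1.94 and 1.78), and *Vnn1*, a pantetheinase of coenzyme A breakdown, gave 0.02.

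A chaperone and a protease of mitochondria were higher without cysteine. *Hspa9*, the matrix HSP70 that also serves iron-sulfur cluster assembly, was at 1167, 1346, 1258 and 861 CPM against 692, 691, 711 and 761 CPM (0.70, edgeR adjusted p = 0.00473), and the call held without each mouse. *Lonp1*, the matrix protease, was at 336, 359, 305 and 207 CPM against 188, 182, 162 and 176 CPM (0.77, adjusted p = 0.0219), a call that was lost without any mouse other than av08 and av10 (up to 0.0838). Neither overlapped. The response of *Hspa9* also differed (0.92, adjusted p = 0.00928), being 1.12 without cysteine and 0.20 with BSO. *Hspd1* gave 0.34 (adjusted p = 0.0613) and *Hspa8*, the cytosolic relative of *Hspa9*, 0.36 (adjusted p = 0.254). *Hspa9* was 1 called of 21 genes of iron-sulfur cluster assembly (median 0.07), and *Lonp1* 1 of 14 of the heat shock list (median 0.19). In the heat shock list 4 were higher without av08, and 2 by DESeq2. None of 20 chaperones of the ER was called by edgeR (median -0.24; unadjusted p under 0.05 in 0 higher and 4 lower, 0 higher and 1 lower by DESeq2).

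Genes of protein synthesis were mostly positive in sign. Of 73 cytosolic ribosomal proteins, 68 were positive in sign with a median of 0.22, and 3 were called higher, beside 1.33% of all genes. The number was 21 without av08, 2 without av10, 1 without av05 or av09, and 0 without av06, av07, av11 or av12. At an unadjusted p under 0.05 32 were higher and 0 lower, and DESeq2 called 12 higher and 0 lower. Against control mice on the same diet without BSO, 26 were called higher without cysteine and 3 lower with BSO. The shares of all genes were 11.6% and 5.4%. These responses differed in 7 ribosomal proteins, all higher without cysteine. *Rpl12*, with 16.8% of its windows shared, was at 235, 334, 296 and 190 CPM without cysteine and at 191, 165, 171 and 166 CPM with BSO (0.61, edgeR adjusted p = 0.0219). *Rpl3* was at 363, 353, 344 and 225 CPM against 230, 228, 209 and 227 CPM (0.52, adjusted p = 0.0241). In both the lowest no-Cys liver was av08, which reached the range of the livers with BSO. The third was *Rpsa* (0.39, adjusted p = 0.0426), with 27.2% of its windows shared. These calls were lost without av06, av07, av11 or av12 (up to 0.153). *Eif3c*, a subunit of initiation factor 3, was at 245, 236, 226 and 186 CPM against 150, 137, 143 and 135 CPM (0.66, adjusted p = 0.00473). *Eif4g3*, a scaffold of cap-dependent initiation, was at 89.4, 70.1, 66.1 and 49.4 CPM against 41, 45.1, 41.1 and 39.2 CPM (0.73, adjusted p = 0.00643). The calls of *Eif3c* and *Eif4g3*, which lie outside the fixed lists and were picked because they held without each mouse, rest on groups that did not overlap.

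The largest changes by size were in genes of low abundance. *Cox6a2*, a subunit of cytochrome oxidase best known from heart and muscle, was at 5.13, 7.11, 4.1 and 0.59 CPM without cysteine and at 0.122, 0.335, 0.0702 and 0.0961 CPM with BSO (4.87, edgeR adjusted p = 0.00311). It overlaps *Itgad* on the opposite strand, and the libraries do not mark strand. *Vmn2r3*, annotated as a vomeronasal receptor, had 126, 160, 171 and 8 counts against 3, 8, 0 and 0 counts (6.16, adjusted p = 0.00545). The calls of both held without each mouse, and av08 was again nearest to the livers with BSO. *Cdkn1a*, the cell cycle inhibitor p21, was at 12.3, 9.39, 22.5 and 5.76 CPM against 3.82, 3.35, 3.86 and 4 CPM (1.73, adjusted p = 0.0412). It was 1 called of 12 p53 targets, lost the call without any mouse other than av08 (up to 0.14), and its control means of 2.04 CPM on no-Cys and 7.19 CPM on no-Trp went the other way (-1.81, adjusted p = 0.0379). The difference of the responses, 3.54 (adjusted p = 0.0117), held without each of the 15 mice.

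Further genes higher without cysteine came from several classes. *Nat8f5*, an N-acetyltransferase family member, was at 5.37, 10.5, 10.2 and 5.16 CPM against 2.25, 2.75, 3.44 and 2.11 CPM (1.60, edgeR adjusted p = 0.00604). *Ctsl*, the lysosomal protease cathepsin L, which was picked after its values were seen because it held without each mouse, was at 1478, 1809, 1418 and 1346 CPM against 804, 807, 802 and 860 CPM (0.89, adjusted p = 0.00551). The call of *Nat8f5* held likewise, as did that of *Krt18*, a keratin of hepatocytes picked in the same way (0.63, adjusted p = 0.00311). *Lrp11* (1.44, adjusted p = 0.0159), *Jrk* (1.54, adjusted p = 0.0311) and *Cyp3a59*, a cytochrome P450 with 20.4% of its windows shared (1.43, adjusted p = 0.0232), lost the call in 4 to 6 of the 8 fits that left out 1 mouse (up to 0.154). *Psmc4*, 1 called of 31 proteasome subunits, gave 0.30 (adjusted p = 0.0439), a call that was lost without any mouse other than av08 (up to 0.14).

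Of 10 male liver genes that depend on growth hormone pulses, 3 were lower without cysteine and none was higher (median -0.76), beside 1.42% of all genes called lower, and 1 of the 3 calls held without each mouse. *Mup3*, a major urinary protein whose level follows the pulses of growth hormone in males, was at 2457, 2174, 2374 and 2182 CPM without cysteine and at 4857, 4313, 4894 and 3903 CPM with BSO. The groups were far apart and each was tight, including av08, and the log2 fold change was -0.97 (edgeR adjusted p = 0.00928) and held without each mouse. *Mup3* responded by -1.66 without cysteine and by -0.66 with BSO. *Mup20* was at 465, 339, 275 and 427 CPM against 1053, 736, 962 and 823 CPM (-1.25, adjusted p = 0.014), but 46.8% of its windows occur in other genes of the family. *Hsd3b5*, a male-specific steroid dehydrogenase with 16.4% of its windows shared, was at 23.6, 14.5, 15 and 30.5 CPM against 56.9, 116, 57.6 and 46.2 CPM (-1.72, adjusted p = 0.0365). *Mup20* lost the call without av06, av07, av09 or av11 (up to 0.0664) and *Hsd3b5* without any mouse other than av08 (up to 0.122). None of 10 genes of growth hormone signalling and IGF1 was called by edgeR (median -0.43; unadjusted p under 0.05 in 0 higher and 4 lower, 0 higher and 2 lower by DESeq2), among them *Igf1* (-0.11) and *Igfals* (-0.44).

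Further called genes that were lower came from lists with few calls or from outside the lists. *C9*, the last component of complement, was at 52.8, 35.9, 24.8 and 153 CPM against 230, 231, 244 and 171 CPM (-1.72, edgeR adjusted p = 0.0219, and -2.53 without av08). *Otc*, ornithine transcarbamylase of the urea cycle, was at 151, 149, 145 and 270 CPM against 281, 295, 307 and 353 CPM (-0.79, adjusted p = 0.0129). *Slc27a5*, which activates bile acids for conjugation, was at 502, 489, 479 and 930 CPM against 969, 865, 918 and 964 CPM (-0.63, adjusted p = 0.0353). In these 3 genes av05 to av07 lay far below the livers with BSO while av08 lay near them. *Haao*, of tryptophan breakdown towards NAD, was at 235, 209, 204 and 324 CPM against 369, 362, 339 and 345 CPM (-0.54, adjusted p = 0.0241). *Apoc1*, an apolipoprotein, was at 1462, 1623, 1711 and 2121 CPM against 2973, 2801, 3057 and 3082 CPM (-0.78, adjusted p = 0.0189). *Otc* was the only 1 of 9 urea cycle genes called by edgeR with all mice (median 0.24, 7 positive in sign), whereas 2 were lower without av08 or av10, and DESeq2 called 1 higher and 2 lower. *Slc27a5* was 1 called of 17 bile acid genes (median -0.16), and *Haao* 1 of 17 genes of tryptophan breakdown and NAD (median -0.09). Without av08, 1 gene was higher and 3 were lower in each of these lists. *C9*, *Otc*, *Slc27a5*, *Haao* and *Apoc1* each lost the call without av05, av06 or av07. *C9*, *Slc27a5*, *Haao* and *Apoc1* also lost it without av09 or av11 (up to 0.133). *Lipc*, hepatic lipase, was at 59.8, 64.3, 76.1 and 92 CPM against 135, 146, 130 and 168 CPM (-0.99), *Ces3a*, a carboxylesterase, was at 729, 750, 662 and 689 CPM against 1176, 1203, 1201 and 1237 CPM (-0.77, adjusted p = 0.0112), and these 2 genes lie outside the lists and were picked after their values were seen because both calls held without each mouse. *Cyp2c37* (-0.48, adjusted p = 0.0372), with 22.1% of its windows shared, was 1 called of 26 P450 and conjugation genes (median -0.11) and was lost without any mouse other than av08 and av10 (up to 0.14). Of the 26, 7 were lower without av08, 6 were lower and 1 higher by DESeq2, and 8 were lower and 3 higher at an unadjusted p under 0.05.

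Of the remaining genes with the largest falls, *Tbx3os1*, an antisense transcript, was at 3.01, 3.67, 2.17 and 2.36 CPM against 10.9, 10.5, 9.9 and 5.73 CPM (-1.72, edgeR adjusted p = 0.00785). Its call held without each mouse, but it overlaps *Tbx3* on the opposite strand. *Dct* (-2.06), *Car1*, carbonic anhydrase 1 (-1.88), *Plk5* (-1.72), *Cd276* (-1.60), *Cd59b* (-1.52, 15.2% of windows shared), *Col27a1* (-1.42), *Dact1* (-1.39, 33.4% shared with an opposite-strand gene) and *Sh2d4a* (-1.24) had adjusted p values of 0.0202 to 0.0416. All 8 lost the call without av05, av06, av07, av09 or av11 (up to 0.128).

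Of 17 clock genes 2 were lower without cysteine and none was higher (median -0.21, 16 negative in sign), beside 1.42% of all genes called lower. Without av08 4 clock genes were lower, beside 564 of all 14740 genes tested. *Nfil3*, a repressor of clock output, was at 5.84, 5.35, 5.77 and 8.49 CPM without cysteine and at 14.4, 13.2, 15.7 and 8.49 CPM with BSO (-1.02, edgeR adjusted p = 0.0257). Control mice on no-Cys were also below those on no-Trp (-1.34, adjusted p = 0.00229). *Cry1*, a core clock repressor, was at 6.43, 9.24, 6.02 and 7.16 CPM against 10.1, 12.4, 11.9 and 14.1 CPM (-0.75, adjusted p = 0.0348), and differed likewise in control mice (-0.69, adjusted p = 0.0301). *Nfil3* lost the call without av05, av06, av07, av09 or av11 and *Cry1* without any mouse other than av08 (up to 0.126). Of 14 genes of metal handling 2 were lower and none was higher (median 0.09), beside 1.42% of all genes called lower. Without av08, 3 were lower and 1 was higher. With all mice the 2 called were the zinc transporters *Slc39a4* (-0.54) and *Slc30a1* (-0.38). Both had an edgeR adjusted p of 0.0419, and the call was lost without 6 or more of the 8 mice (up to 0.149). Between control mice on no-Cys and no-Trp, *Slc30a1* differed the same way (-0.67, adjusted p = 0.00108) and *Slc39a4* the opposite way (0.79, adjusted p = 0.0043). *Nr1d1* (-0.22) and *Dbp*, whose control means were 81.4 against 28 CPM and 174 against 70.9 CPM, gave differing responses (-1.76, adjusted p = 0.00271, and -1.50, adjusted p = 0.00124), and so did *Mt1* (2.67, adjusted p = 0.0269), at 109 CPM in control mice on no-Cys and 1063 CPM on no-Trp. These differing responses hold the difference between the control groups as well as that between the knockout groups. Why the control groups differed was not tested.

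Other programs of the liver showed few calls between the groups. Of 75 nuclear-encoded subunits of the respiratory complexes 1 was lower, *Sdhd* (-0.32, edgeR adjusted p = 0.0425), a call lost without each of the 8 mice (up to 0.154), and the median was -0.10, with 55 of 75 negative in sign. At an unadjusted p under 0.05 18 were lower and 1 was higher, DESeq2 called 7 lower and 0 higher, and 4 were lower without av08. None was called among 11 mitochondrial mRNAs (median -0.16; 1 at an unadjusted p under 0.05, 0 by DESeq2), 15 genes of coenzyme A turnover (0.00; 2 and 1), 21 of sulfur amino acid metabolism (-0.05; 6 and 3), 20 of amino acid breakdown (0.03; 5 and 2), 20 acute-phase proteins (-0.23; 2 and 0), 15 interferon-stimulated genes (-0.29; 4 and 1) and 12 hepatocyte transcription factors (-0.12; 5 and 2). The acute-phase median was -0.74 without av08, when 4 were lower. Without av08, 2 genes of amino acid breakdown were higher and 3 lower, 2 of sulfur amino acid metabolism were lower, 1 hepatocyte factor was higher and 2 were lower, and 1 gene of coenzyme A turnover was higher. None of the 15 interferon-stimulated genes was positive in sign, and their median was -0.57 without av08. *Selenbp2*, a methanethiol oxidase and the lowest of the sulfur genes, was at 7.14, 2.79, 2.23 and 9.37 CPM against 22.6, 106, 19.7 and 13.4 CPM (-2.89, adjusted p = 0.0615). *Cyp7a1*, the rate-limiting enzyme of bile acid synthesis, was at 22.5, 20.8, 43.5 and 86 CPM against 93.8, 67.9, 112 and 144 CPM (-1.28, adjusted p = 0.168, and -1.85 with adjusted p = 0.0358 without av08). Over all lists 15 members were not tested, of which 14 had too few counts.

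**Figure D5:**
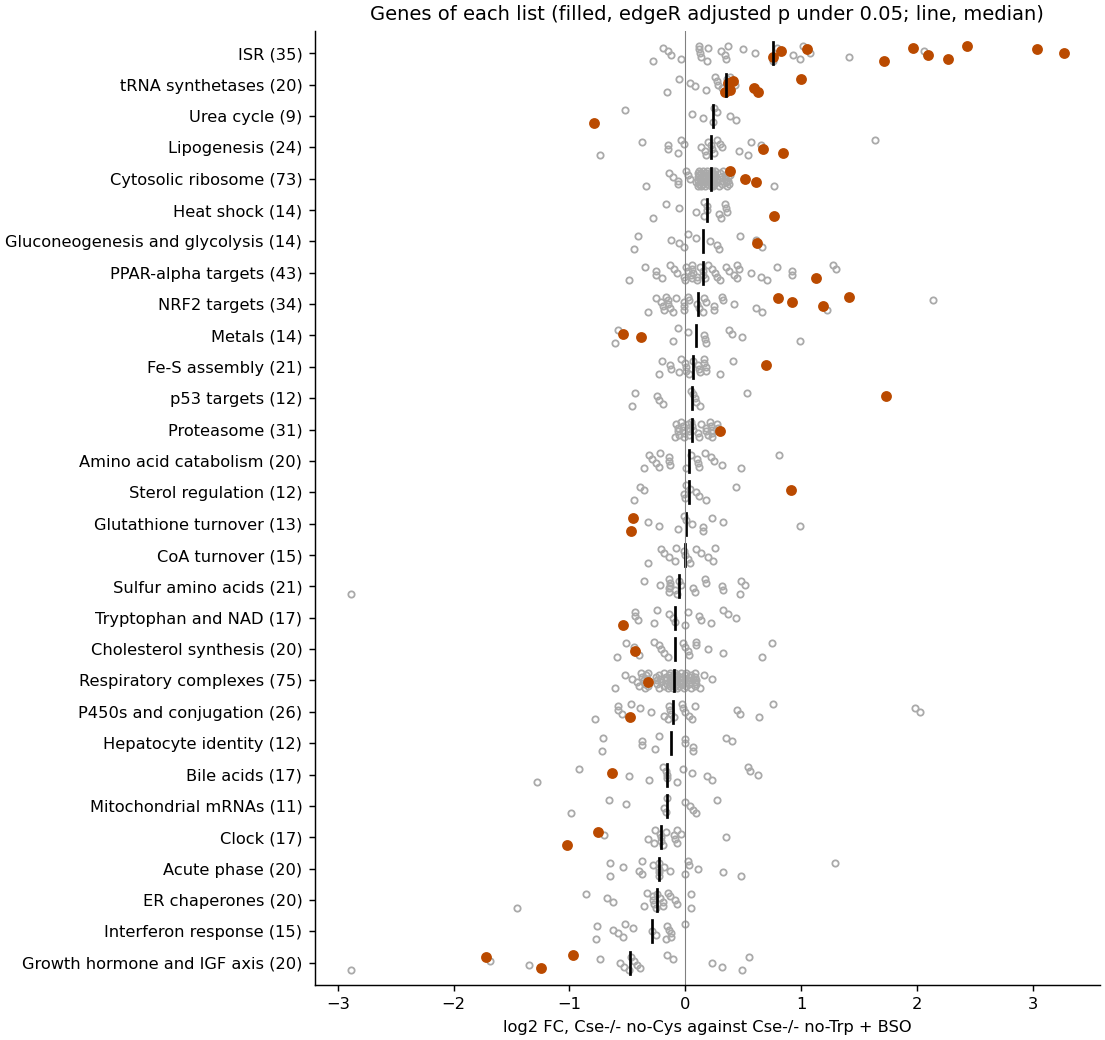
Log2 fold change between the no-Cys livers and the livers with BSO (horizontal axis) of the tested genes of 30 lists; filled points were called by edgeR and a line marks each list's median. With all 8 mice the ISR list has the highest median, 0.76, with 10 of 35 genes called, and the growth hormone list the lowest, -0.48. Without av08 the acute-phase list has the lowest median, -0.74.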

How the data were processed

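Liver mRNA of 20 male mice was sequenced by the authors with a poly(A) kit that does not mark strand. The values are read counts per gene, deposited without normalization, from reads aligned with HISAT2 2.1.0 to GRCm38 and counted with HTSeq 0.11.0 (submitters' processing notes). Its release of the annotation is not stated in the sources used here. The labels name no column of the table. Of its 21 columns, 20 were tied to groups of genotype and diet by the study's list of mice, and 1 that this list lacks was not used. Replicates are separate mice.

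Genes were kept with filterByExpr of edgeR 4.0.16 (minimum count 10, minimum total 15) and TMM scaling was used. All 20 libraries entered 1 quasi-likelihood fit of 6 group means in R 4.3.3 (common dispersion 0.027). Two-sided p-values received Benjamini-Hochberg adjustment over 14759 genes, and calls are at an adjusted p under 0.05. CPM values use the TMM-scaled library size. Standard errors are the log2 fold change over the square root of the F statistic. DESeq2 1.42.0, other scalings, filters and thresholds, thinning to 11785740 counts, fits of only the groups compared and leaving out each mouse were alternatives. On simulated counts with the group sizes of the no-Cys and BSO livers, edgeR recovered 42% of changes of 1.5-fold, 88% of 2-fold and 100% of 4-fold, with 8 false calls among 14759 genes. The changed genes had a mean CPM of at least 1. All simulated mice of a group were drawn around a common mean, so that no liver stood apart as av08 did. These rates therefore do not hold for mice that differ as those here did. Depth limits genes of few counts, so that counts are given for them.

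The comparison and the gene lists were chosen with earlier results of these data known. Genes named are the 12 called genes with the largest change in each direction (mean CPM of at least 1, groups not overlapping), the called extremes of each list, the genes that the study names for liver, and list members given for their role. The values of 1 gene that this rule names are not reported here. Genes added after their values were seen are said to be so. Shared sequence is given as how many 61-base windows of the transcripts, in percent, are also found in other genes. Promoters come from RefSeq. Plots were made with Python 3.11.15 and matplotlib 3.10.9.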

Additional observations from a re-analysis of the deposited data

Results flagged for a closer look

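Over 160 groups of 4 livers, 1 liver lay far from the other 3 in 19, where chance gives about 1 in 20 groups. Of the 19, 13 were in the no-Cys group and 10 of these were av08. There, av08 was nearer to the livers with BSO than the others were in *Gars* (96 against 132 to 138 CPM), *Psat1* (33.8 against 64.5 to 66.7 CPM), *Glo1* (199 against 163 to 168 CPM), *Otc* (270 against 145 to 151 CPM), *Slc27a5* (930 against 479 to 502 CPM), *Nfil3* (8.49 against 5.35 to 5.84 CPM), *Col27a1* (20.3 against 7.94 to 9.83 CPM), *Dct* (2.66 against 0.434 to 0.66 CPM) and *Cyp3a59* (59.2 against 136 to 150 CPM). The transcript of the knocked-out gene, *Cth*, was at 13.3 CPM in av08 against 6.37 to 7.04 CPM. The same rule picked *Dact1* in av06 (1.03 against 1.83 to 1.86 CPM) and, in av07, *Ddit3* (15.8 against 10.9 to 11.4 CPM) and *Slc30a1* (31.5 against 28.2 to 28.6 CPM).

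Among the livers with BSO, av10 stood apart in 5 measures. The mean log2(CPM + 1) of the NRF2 targets was 6.52 there against 6.98 to 7.04, *Glo1* was at 219 against 243 to 244 CPM, *Hsd3b5* at 116 against 46.2 to 57.6 CPM, *Plin2* at 278 against 161 to 176 CPM, and *Vmn2r3* at 0.536 against 0 to 0.0523 CPM. In av12, *Gars* was at 55.8 against 64.3 to 65.8 CPM. The causes were not tested.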

How the results depend on the processing

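No paired analysis was possible because the columns carry a number for each mouse and no replicate number shared between groups. Between the no-Cys livers and those with BSO, DESeq2 called 441 genes higher and 435 lower, and a fit without a filter on low counts called 373 lower. An adjusted p under 0.01 left 24 and 16. With only av10 and av11 of the BSO group, chosen after the depths were seen because they were as shallow as the no-Cys livers, 4 were higher and 0 lower by edgeR, with fewer mice. Leaving out 1 mouse gave 34 to 463 higher and 18 to 564 lower. For the responses, an adjusted p under 0.01 left 892 and 968 genes without cysteine and 360 and 263 with BSO, av10 and av11 alone gave 161 and 111 with BSO, and leaving out 1 mouse 453 to 949 and 448 to 840. The difference of the responses had 308 and 404 by DESeq2, 98 higher with thinned libraries, 325 lower without a filter, 5 and 18 with av10 and av11 alone, 10 and 24 at 0.01, and 45 to 377 and 66 to 548 without 1 mouse. ISR genes called higher were 6 with thinned libraries, 2 with av10 and av11 alone, 4 at 0.01 and 4 to 15 without 1 mouse. For tRNA synthetases the numbers were 11 by DESeq2, 4 without a filter, 1 with av10 and av11 alone, 1 at 0.01 and 1 to 12 without 1 mouse. With av10 and av11 alone the median log2 fold change was 0.46 for the ISR list and 0.35 for the tRNA synthetases. NRF2 targets called higher were 8 by DESeq2, 8 without a filter, 0 with av10 and av11 alone, 0 at 0.01 and 0 to 7 without 1 mouse. Cholesterol genes called lower were 0 with av10 and av11 alone, 0 at 0.01 and 0 to 1 without 1 mouse. Of 57 named genes called, 55 kept the call in DESeq2 (*Asns* lost it, and *Phgdh* had no adjusted p there), 57 with RLE factors, 56 with upper-quartile factors, 46 when only the groups compared were fitted, 45 with thinned libraries, 3 with av10 and av11 alone and 12 to 56 without 1 mouse. Signs turned in genes near 0: *Srebf2* was -0.01 without a filter and *Vnn1* -0.03 with av10 and av11 alone, and without 1 mouse *Ddit3* ran from -0.17 to 0.02, *Gstm1* from -0.02 to 0.40, *Nqo1* from -0.03 to 0.29, *Srebf2* from -0.12 to 0.12 and *Vnn1* from -0.07 to 0.07. The causes were not tested.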

Other observations

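Genes around the central vein that follow Wnt signalling were looked at after their values had been seen, so that they were chosen for their difference and support nothing. *Axin2*, a feedback inhibitor of the pathway, was at 4.37, 4.69, 9.62 and 8.19 CPM in av05 to av08 and at 17.2, 11.5, 13.5 and 19 CPM in av09 to av12 (-1.20, edgeR adjusted p = 0.0159). *Tbx3*, a transcription factor downstream of it, was at 22.4, 13.7, 28.8 and 42.3 CPM against 58, 57.7, 58.5 and 67.4 CPM (-1.17, adjusted p = 0.0159), and overlaps the antisense *Tbx3os1*. *Rnf43*, a ligase that removes Wnt receptors, was at 16.3, 12.9, 22.6 and 31.9 CPM against 44.3, 29.9, 43.5 and 53.6 CPM (-1.04, adjusted p = 0.0251). *Sp5* was at 1.42, 0.807, 2.17 and 2.51 CPM against 4.38, 2.88, 3.44 and 3.33 CPM (-1.04, adjusted p = 0.0326), and *Glul*, glutamine synthetase, gave -0.37 (adjusted p = 0.0356). In the first 4 the no-Cys livers lay below the livers with BSO, except for *Rnf43*, in which av08 overlapped av10. *Axin2* lost the call without av05, av06 or av09, *Tbx3* without av05 or av06, *Rnf43* and *Sp5* without any mouse other than av08 and av10, and *Glul* without any other than av08 (adjusted p of up to 0.125). *Lgr5* (-0.70), *Znrf3* (-0.33), *Nkd1* (0.11), *Lect2* (-0.50), *Notum* (-0.49), *Rhbg* (-0.21) and *Cyp2e1* (-0.30, adjusted p = 0.0921) were not called. *Tbx3* averaged 25.7 CPM in control mice on no-Cys, 41.3 CPM on no-Trp and 18.1 CPM on the control diet, and 51.7 CPM in knockouts on no-Trp without BSO.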
